A study of Mus musculus with 20 samples.

Results

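Male germ cells carrying 1 disrupted copy of Tex15 (Tex15+/-) were compared between postnatal day 2 (d2, 4 libraries) and embryonic day 16.5 (e16.5, 3 libraries). These 7 libraries are all those labelled heterozygous at either age, of 20 in the series, which also holds heterozygous cells at e18.5 (embryonic day 18.5, 3 libraries) and Tex15-/- (knockout) cells at the same ages. Both groups compared are male, of mixed strain background, and were sorted by flow cytometry on green fluorescence (GFP). Total RNA was amplified with Ovation kits before sequencing. The labels do not name the GFP driver, the Tex15 allele or the number of animals behind a library, and wild-type cells were not analysed here. The series text speaks of biological triplicates, while d2 has 4 libraries; if libraries share animals, the p-values measure only the spread between these samples.

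Fetal male germ cells stop dividing in mid-gestation and stay in mitotic arrest as prospermatogonia until the days after birth. During the arrest they write DNA methylation anew, with Dnmt3a, Dnmt3l and PIWI-interacting RNAs (piRNAs, small RNAs that direct silencing of transposons). Around birth they take up the cell cycle again, and some become spermatogonial stem cells, which depend on GDNF (glial cell line-derived neurotrophic factor) signalling through the receptors Gfra1 and Ret. The comparison of d2 with e16.5 spans this interval and gives the net change over it.

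The level of a gene is its CPM, the count set against the library's total over genes and scaled by TMM factors (trimmed mean of M-values, edgeR). A gene is said to have risen or fallen where the Benjamini-Hochberg adjusted p of edgeR's quasi-likelihood test was under 0.05, and log2 fold changes are d2 against e16.5 with their standard error (SE). Libraries held 22590765 to 24173580 counts, genes and repeats together, at e16.5 and 16845522 to 24767079 at d2. Log CPM correlated at r = 0.921 to 0.967 between libraries of 1 age and at 0.792 to 0.871 between ages, as a description across genes. The first principal component held 62.2% of the variance and separated the ages. On the second (12.4%), e16.5 replicate 3 and d2 replicate 4 lay lowest and e16.5 replicate 1 and d2 replicate 2 highest.

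All d2 libraries stand in a table of their own whose gene symbols differ from those of the e16.5 and e18.5 tables. The comparison covers the 23853 symbols common to the tables; 642 symbols stood only in the e16.5 and e18.5 tables and 488 only in the d2 table, together with about 1.2% of gene counts. By RefSeq names and positions (GRCm38.p6), 72 of the 16142 genes tested overlap or rename a symbol of a single table, and 41 of these passed the test. Without them 3393 genes were higher and 3247 lower. A symbol held by all tables may still have been counted over different exons, which the files do not show, so age and gene definition cannot be told apart for a single gene. For that reason the levels at e18.5, whose table has the same symbols as that of e16.5, are given beside the main genes.

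Tex15, the gene that is disrupted on 1 allele here, had 2154, 2006 and 1734 CPM in the e16.5 libraries, 1311, 1286 and 1797 CPM in those of e18.5 and 898, 842, 1021 and 625 CPM in those of d2. The d2 libraries do not overlap with either fetal age, while e16.5 and e18.5 overlap. From e16.5 to d2 Tex15 fell with a log2 fold change of -1.21 (SE 0.16, adjusted p = 2.8e-05). In 1 fit over all 20 libraries, knockout included, the log2 fold change was -1.20 and the call was lost (adjusted p = 0.29). In knockout libraries it was read at 3.61 to 5.42 CPM at e16.5 and at 2.07, 2.51 and 2.64 CPM in 3 of the 4 libraries labelled knockout at d2; the library labelled knockout d2 replicate 2 had 103 CPM, above the others of its group and below every heterozygous library.

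The label of germ cells was checked against marker genes. Ddx4, a germline RNA helicase, had means of 616 CPM at e16.5 and 481 CPM at d2 (log2 fold change -0.36, adjusted p = 0.079), and Dazl, a germ cell RNA-binding protein, had means of 959 and 1604 CPM and rose (log2 fold change 0.74). The summed CPM of 16 germ cell markers was 11500, 10047 and 8734 in e16.5 libraries. It was 7851, 7271 and 8883 in those of e18.5 and 5660, 6173, 5995 and 5388 in those of d2, with no overlap between d2 and either fetal age. Of the 16, 10 fell and 1 rose (2 without e16.5 replicate 3), with a median log2 fold change of -1.07; the fallen members include Dppa3, Pou5f1 and Dppa4, which mark the earlier state, and Mael, Tdrd1 and Piwil2 of the piRNA pathway.

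Markers of other testis cells were far below the germ cell sum at both ages. Sertoli cell markers summed to 122 to 145 CPM at e16.5 and 148 to 179 CPM at d2. Of 17 tested, 7 rose, 1 fell (2 without d2 replicate 1) and 9 did not pass. Those that rose include Sox9 (10.3, 9.47 and 9.13 CPM, then 25.2, 27.4, 26.00 and 15.7 CPM) and Amh (means 0.311 and 2.12 CPM). Macrophage and white blood cell markers summed to 52.7 to 82.5 CPM and then 124 to 131 CPM, with 2 of 8 higher at d2 (Fcer1g and Mrc1; 1 without e16.5 replicate 1) and Adgre1 lower (2 lower without e16.5 replicate 2 or d2 replicate 4 or with DESeq2, 3 with all 20 libraries in 1 fit), and with C1qa, C1qb and C1qc at 0 in every d2 library. Sums for peritubular and interstitial stroma (515 to 697, then 439 to 569 CPM) and for Leydig cells (115 to 246, then 112 to 149 CPM; Insl3 at 0 at both ages) overlapped between ages. Of stroma markers 3 of 22 were higher and 5 lower (3 without e16.5 replicate 2). Of Leydig markers 1 of 11 was higher (0 without e16.5 replicate 1 or 3 or d2 replicate 3 or 4) and 2 were lower (5 without e16.5 replicate 1, 1 without e16.5 replicate 2). Endothelial markers went from 403 to 431 CPM to 170 to 227 CPM, and most of that difference lay in Vwf (309, 289.6 and 222 CPM, then 20.5, 20.3, 17.1 and 23.1 CPM), the 1 of 11 tested that fell (2 without d2 replicate 4). Of the other endothelial markers, Kdr (means 2.95 and 8.73 CPM) and Pecam1 (24.9 and 43.3 CPM) rose, and the median log2 fold change of the list was 0.45. The 2 higher were 0 without e16.5 replicate 2 or d2 replicate 1, 1 without e16.5 replicate 1 or d2 replicate 2 or 4, and 5 without e16.5 replicate 3. In bulk samples such as these, fewer cells of a type and less RNA per cell cannot be told apart. The part of these markers in the gene results was not tested.

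**Figure D1:**
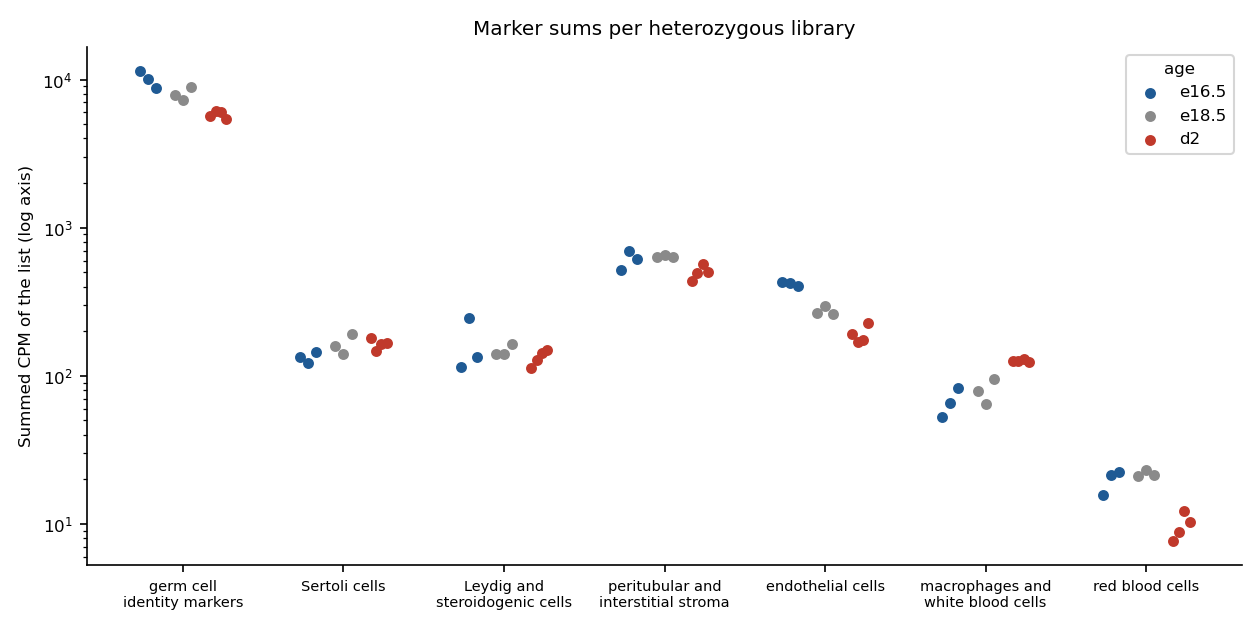
Summed CPM (log axis) of 7 marker lists in each heterozygous library at e16.5, e18.5 and d2; each point is 1 library. The germ cell sum is 5388 CPM or more in every library, and no sum for another cell type exceeds 697 CPM.

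Of 16142 genes tested, 3411 were higher at d2 (21.1%) and 3270 lower (20.3%), or 6681 together (41.4%). At least 2-fold were 2210 higher (13.7%) and 2020 lower (12.5%). In 7353 genes (45.6%) the CPM of the ages did not overlap. The median log2 fold change of all genes was 0.02. The shares 21.1% and 20.3% are the background against which each list below is to be read. The lists and their members were chosen with earlier results of these data known, so the counts describe them and are no independent evidence.

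Hs3st3b1 and Spry4 were among the genes with the largest rises. Hs3st3b1, a heparan sulfate sulfotransferase, was at 0.787, 0.225 and 0.623 CPM at e16.5 and 60.9, 104, 76.4 and 34.2 CPM at d2, with a log2 fold change of 6.93 (SE 0.48, adjusted p = 2e-07). Spry4, a feedback inhibitor of receptor tyrosine kinase signalling, went from 1.67, 0.564 and 2.80 CPM to 125, 135, 131 and 106 CPM. Every d2 library stood far above every e16.5 library for both genes, and Spry4 was still at 3.27, 1.12 and 5.95 CPM at e18.5. Dusp6, the phosphatase that switches off ERK, had 3.05, 1.01 and 1.56 CPM and then 59.9, 73.2, 66.5 and 41.9 CPM (31.7-fold, adjusted p = 7.8e-08). The transcription factor Egr3 had 4.03, 5.07 and 5.40 CPM and then 177, 157, 177 and 154 CPM. Further rises of this rank were Cd93 (5.68), the endothelial lipase Lipg (4.99), Tmem59l (4.98) and Sez6 (5.73, all log2 fold changes). Sez6 and Cd93 rest in part on e16.5 replicate 3: without it the log2 fold changes were 7.72 and 6.32.

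Dppa3 was among the genes with the largest falls. Dppa3, a maternal-effect gene of primordial germ cells, was at 751, 271 and 53.96 CPM at e16.5, 16.3, 16.4 and 14.7 CPM at e18.5 and 4.84, 3.32, 1.28 and 2.87 CPM at d2. The e16.5 libraries differed widely among themselves, yet all lay above d2, with a log2 fold change of -6.84 (SE 0.95, adjusted p = 0.0011) and -5.70 without e16.5 replicate 1. Khdc1a was at 335, 99.5 and 40.5 CPM and then 4.84, 8.96, 11.7 and 5.17 CPM (log2 fold change -4.36, and -3.18 without e16.5 replicate 1). The cell adhesion genes Cdh12 (-5.29) and Chl1 (-3.99), the sialic acid receptor Cd22 (-4.66, -5.33 without d2 replicate 4), the channel protein Tmc2 (-4.65), Ky (-4.08), the complement protease C1s1 (-3.97) and the ciliary Drc1 (-3.96) fell too, as log2 fold changes. Apex1, the base excision repair endonuclease, went from 87.1, 79.3 and 77.8 CPM to 1.13, 3.88, 2.44 and 2.64 CPM, and was still at 50.04, 57.1 and 59.4 CPM at e18.5. Tpp1, a lysosomal peptidase, went from 283, 336 and 319.5 CPM through 109, 95.9 and 175 CPM to 12.4, 17.9, 16.7 and 20.5 CPM. For Apex1 and Tpp1, as for every gene here, age and gene definition cannot be told apart.

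Age and gene definition cannot be told apart for any of the 24 genes with the largest changes, and 4 of them also touch a symbol of a single table. For the others, different exons counted under the same symbol would not show in this check. Adnp (11.7, 9.92 and 6.43 CPM, then 398, 409.9, 397 and 421 CPM), Scamp3 (5.64) and Cmtr1 (5.16, log2 fold changes) overlap the readthrough symbols Dpm1-adnp, Clk2-scamp3 and Rnf8-cmtr1, which only the e16.5 and e18.5 tables hold and which there had 0 to 10 counts in a library. Mia2 went from 219, 205 and 141 CPM to 1.34, 2.12, 2.67 and 1.26 CPM, while Ctage5, a synonym of Mia2 that only the d2 table holds, had 1304, 2198, 1422 and 1192 counts in the d2 libraries against 13, 30, 23 and 11 counts for Mia2. In 2 genes every e16.5 library was at 0: Sp6, at least 100-fold higher at d2, and Apoc2, at least 23.2-fold, and both overlap a symbol of the e16.5 table only. Of 16 genes at 0 in every d2 library, Vmn2r100 was at least 37.5-fold lower, Sycn at least 34.3-fold and Clca4c-ps, renamed in the d2 table, at least 26.2-fold; these bounds set 3 counts over the group of zeros as the floor.

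**Figure D2:**
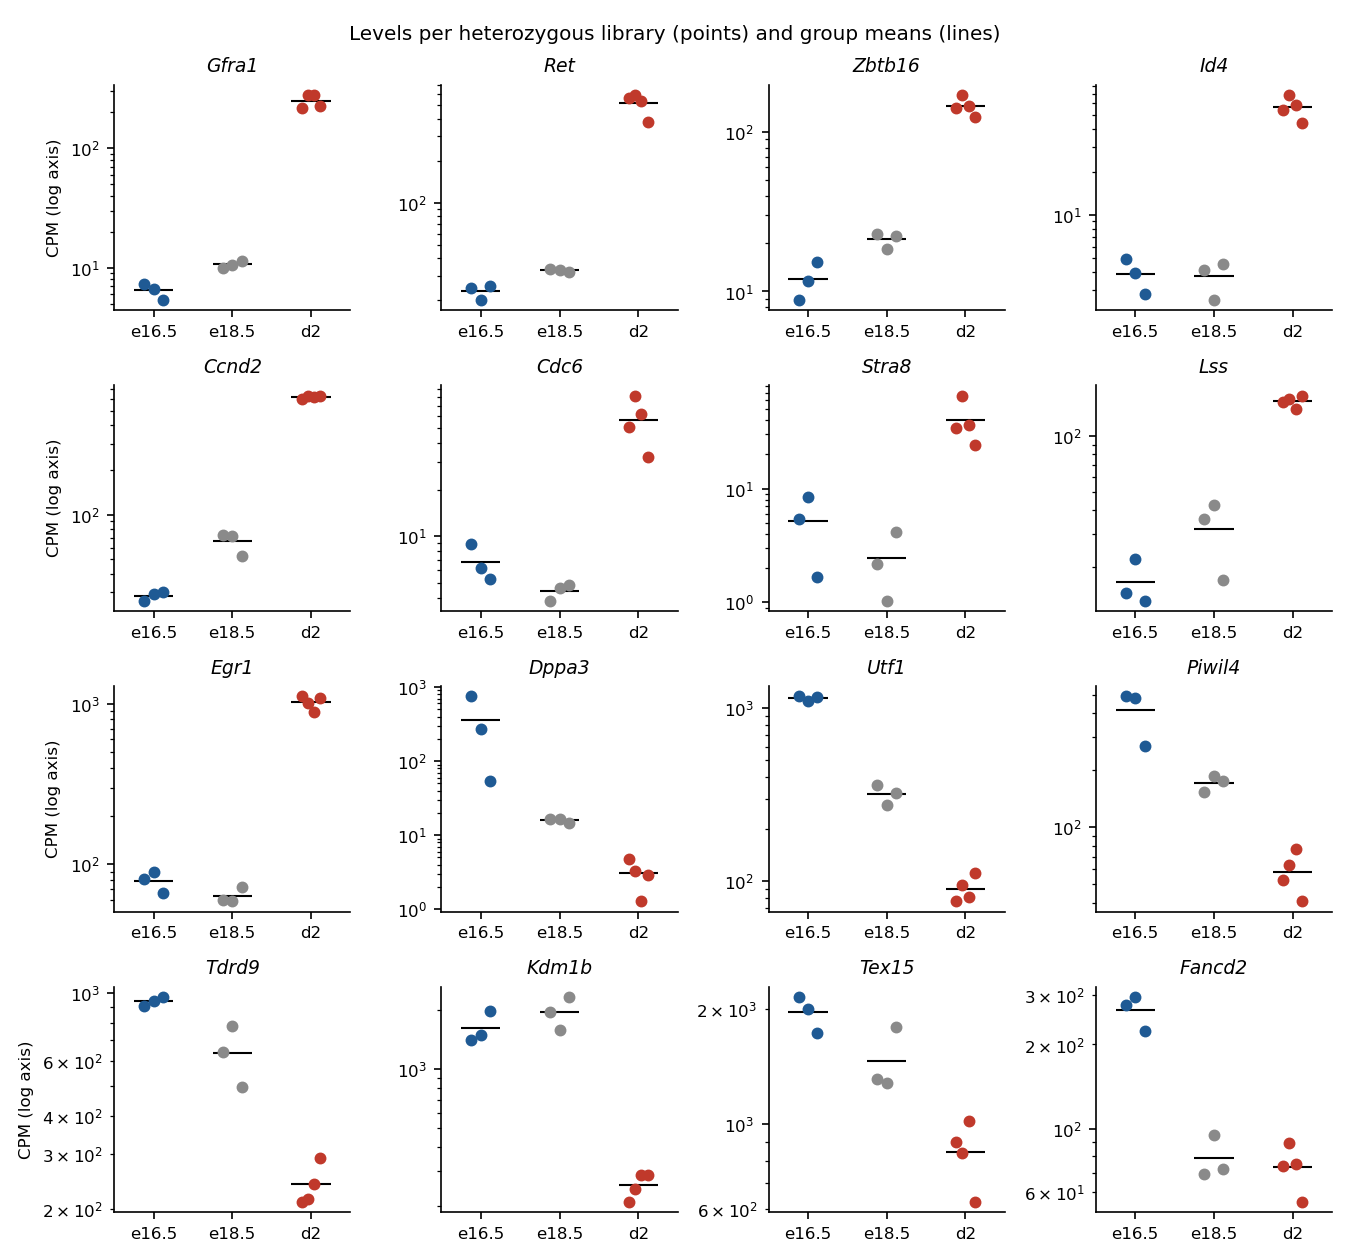
CPM (log axis) of 16 genes in each heterozygous library at e16.5 (blue), e18.5 (grey) and d2 (red), with lines at the group means. The e16.5 and d2 points do not overlap in any panel; Gfra1 lies at 5.40 to 7.38 CPM at e16.5 and 216 to 281 CPM at d2.

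Of genes of GDNF reception and of stem and progenitor cells, 16 of 31 tested were higher and 5 lower, with a median log2 fold change of 1.01. Gfra1, the GDNF co-receptor, was at 7.38, 6.65 and 5.40 CPM at e16.5, 10.01, 10.6 and 11.5 CPM at e18.5 and 216, 281, 279 and 224 CPM at d2. The fetal ages were low and every d2 library stood far above both, with a log2 fold change of 5.27 (SE 0.21, adjusted p = 1.5e-10). Ret, the receptor kinase that pairs with Gfra1, was at 24.4, 20.2 and 25.3 CPM and then 564, 595, 533 and 381 CPM, with a log2 fold change of 4.47 (SE 0.20, adjusted p = 4.9e-10). Replicate 4 was the lowest for Ret at d2, still far above every e16.5 library. The repressor Zbtb16 (PLZF), needed for stem cell maintenance, went from 8.85, 11.6 and 15.4 CPM through 22.9, 18.6 and 22.4 CPM to 141, 171, 145 and 124 CPM. Id4, a marker of stem cells, stayed at 4.10, 2.55 and 4.51 CPM at e18.5 and reached 53.9, 68.98, 58.5 and 43.9 CPM at d2 from 4.92, 3.94 and 2.80 CPM. Pou3f1, a POU factor induced by GDNF, was at 0.295, 0.338 and 0.208 CPM and then 29.6, 36.04, 21.7 and 18.6 CPM (91.1-fold). Etv5 (mean 23.0 then 247 CPM) and Lhx1 (mean 1.95 then 57.2 CPM), which GDNF also induces, rose as well. The 5 that fell were Nanos2, Taf4b, Tspan8, Rarg and Adgra3 (log2 fold changes -0.39 to -3.08).

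Of genes of spermatogonial differentiation, 9 of 20 tested were higher, 9 did not pass and 2 were lower (1 without e16.5 replicate 2), with a median of 1.06. Sohlh2, a differentiation factor, went from 11.7, 11.2 and 7.47 CPM to 72.6, 109, 91.1 and 50.7 CPM, and Dmrt1, which holds back meiosis in spermatogonia, from 36.00, 32.5 and 12.97 CPM to 132, 154, 124 and 128 CPM. At e18.5 Sohlh2 stood at 23.3, 20.6 and 14.4 CPM, between both ages, and Dmrt1 at 32.2, 34.3 and 21.4 CPM, within its e16.5 range. Kit, the receptor of differentiating spermatogonia, had means of 91.8 and 111 CPM and an adjusted p of 0.32. Stra8, induced by retinoic acid, was at 5.41, 8.45 and 1.66 CPM and then 33.97, 65.95, 36.2 and 24.4 CPM, with a log2 fold change of 2.96 (SE 0.48, adjusted p = 0.00033). In the list of retinoic acid synthesis, breakdown and response 8 of 23 were higher and 3 lower; 4 were higher without e16.5 replicate 2 and 5 without d2 replicate 2. The retinoic acid-degrading enzyme Cyp26a1 was at 0.393, 0 and 0.208 CPM and then 6.79, 7.62, 4.41 and 5.75 CPM (log2 fold change 4.82, and 5.69 without e16.5 replicate 1), and the binding protein Crabp1 at 12.9, 13.1 and 17.02 CPM and then 38.9, 61.3, 30.2 and 34.8 CPM. The receptor Rarg (log2 fold change -2.18) and Lrat, which stores retinol as esters (-1.68), fell.

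In the proliferation list 22 of 35 were higher and 3 lower, with a median log2 fold change of 1.00. The summed CPM of the list overlapped between the ages, at 7513, 5798 and 4795 at e16.5 and 6772, 9099, 8057 and 4058 at d2. Cdc6, which loads the replicative helicase, was at 8.85, 6.20 and 5.29 CPM at e16.5, 3.82, 4.62 and 4.80 CPM at e18.5 and 51.2, 81.3, 61.9 and 32.4 CPM at d2. Replicate 4 was the lowest d2 library and replicate 2 the highest, with no overlap of the ages and a log2 fold change of 3.06 (SE 0.32, adjusted p = 3.7e-06). Rrm2, which makes deoxynucleotides, was at 10.3, 9.24 and 6.75 CPM and then 68.8, 93.5, 80.8 and 27.7 CPM, in the same order of d2 libraries, and the sliding clamp Pcna at 48.1, 30.8 and 25.7 CPM and then 119, 157, 149 and 99.8 CPM. Mki67, the Ki-67 antigen, had means of 212 and 1523 CPM (log2 fold change 2.85) and Mcm5, a subunit of the helicase, 44.4 and 137 CPM (1.63). The 3 members that fell act in mitosis: Bub1, a spindle checkpoint kinase, went from 598, 538 and 397 CPM to 204, 246, 211 and 144 CPM, with Cenpe (-0.70) and Cenpf (-1.39, log2 fold changes).

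Among D-type cyclins and genes of growth entry, 9 of 12 rose and 1 fell (median 1.82). Ccnd2 was at 26.4, 29.1 and 30.1 CPM at e16.5, 73.4, 71.4 and 53.01 CPM at e18.5 and 603, 632, 618 and 623 CPM at d2, with no overlap and a log2 fold change of 4.44 (SE 0.16, adjusted p = 9.8e-11). Ccnd1 went from 18.4, 16.8 and 19.09 CPM to 166, 374, 231 and 119.8 CPM, with d2 replicate 2 the highest and replicate 4 the lowest of their age. Their partner kinase Cdk6 fell from 136, 121 and 117 CPM to 47.9, 52.1, 56.2 and 49.4 CPM. Brakes on the cycle were mixed, with 7 of 22 higher and 2 lower (1 without e16.5 replicate 2, e16.5 replicate 3 or d2 replicate 1). Cdkn1a (p21) was at 6.98, 3.27 and 3.22 CPM and then 38.6, 39.3, 29.5 and 27.6 CPM, while Ccng2, a cyclin linked to arrest, fell from 44.3, 38.7 and 39.3 CPM to 12.2, 15.9, 12.4 and 9.999 CPM. Of histone genes, 9 of 20 were higher and 2 lower. The linker histones Hist1h1a (log2 fold change 4.55) and H1f0 (2.23) rose, and H3f3a and H3f3b, genes of histone H3.3, fell.

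Promoter sequences of genes from the lists that moved together were searched for known motifs on both strands. The windows run from 250 bases before to 50 after a gene's start in RefSeq (GRCm38.p6), and 655 of 898 list genes had one; the share is given over all 32851 windows. Of the 22 proliferation genes that rose, 16 had a window. The E2F site TTGGCGC was in 6 of these 16 (Cdk1, Cdt1, Mcm3, Mcm5, Mcm6 and Mki67) and in 2.45% of all windows, and the second E2F form GCGGGAA in 3 of 16 against 4.60%. CCAAT boxes were in 10 of 16 against 37.4%, and the cell cycle element TTTGAA (CHR) in 5 of 16 against 17.9% of windows. The 3 proliferation genes that fell all had a window with a CCAAT box. The first E2F form read backwards ends in CCAA and can overlap a CCAAT box. The windows of Cdc6, Mcm5 and Mki67 are shown because they hold the E2F forms, with every match of the 4 motifs in capitals. In Cdc6 (chr11:98907901-98908200, plus strand) the match lies 138 bases before the start, and in Mcm5 (chr8:75109259-75109558, plus strand) the E2F matches lie 164 and 149 bases before it. In Mki67 (chr7:135716330-135716629, minus strand) the E2F match begins 67 bases before the start, downstream of the CHR and CCAAT matches.
Cdc6: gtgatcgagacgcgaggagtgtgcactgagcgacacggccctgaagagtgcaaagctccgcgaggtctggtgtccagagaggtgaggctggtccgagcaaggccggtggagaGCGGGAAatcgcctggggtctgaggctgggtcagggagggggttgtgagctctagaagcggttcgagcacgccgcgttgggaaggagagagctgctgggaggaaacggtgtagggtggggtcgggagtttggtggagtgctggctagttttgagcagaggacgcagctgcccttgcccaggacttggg
Mcm5: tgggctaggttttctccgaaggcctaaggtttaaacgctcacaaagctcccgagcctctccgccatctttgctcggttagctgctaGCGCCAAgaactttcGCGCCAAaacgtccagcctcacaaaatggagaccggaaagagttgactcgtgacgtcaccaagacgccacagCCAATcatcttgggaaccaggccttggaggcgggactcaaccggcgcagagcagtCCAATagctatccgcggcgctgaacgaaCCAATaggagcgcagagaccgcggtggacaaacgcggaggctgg
Mki67: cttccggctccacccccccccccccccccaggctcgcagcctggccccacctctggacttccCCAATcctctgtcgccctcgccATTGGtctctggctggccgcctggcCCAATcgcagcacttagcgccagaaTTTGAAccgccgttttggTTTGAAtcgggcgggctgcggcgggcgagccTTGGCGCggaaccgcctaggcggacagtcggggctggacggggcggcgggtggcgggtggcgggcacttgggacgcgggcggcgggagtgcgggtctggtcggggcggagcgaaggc

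Immediate early genes, which growth factors and also tissue dissociation induce within minutes, rose in 19 of 26 cases and fell in 4, with a median log2 fold change of 1.95. Egr1 was at 80.8, 89.04 and 66.1 CPM at e16.5, 60.2, 58.7 and 71.7 CPM at e18.5 and 1112, 1006, 893 and 1081 CPM at d2. There was no overlap of d2 with either fetal age, and the log2 fold change was 3.70 (SE 0.17, adjusted p = 5e-10). Egr2 followed it, at 7.77, 12.96 and 8.92 CPM and then 172, 226, 167 and 199 CPM, as did Zfp36, which destabilises messages of the early response, at 24.8, 25.2 and 17.4 CPM and then 134, 155, 125 and 96.2 CPM. Fos had means of 5.02 and 62.6 CPM (log2 fold change 3.65) and Jun of 16.4 and 35.3 CPM (1.10). The 4 that fell were Jund, Klf6, Hspa1b and the heat shock protein Hsph1, the last from 1163, 944 and 818 CPM to 289, 305, 336 and 296 CPM. The part of sorting or dissociation in these values was not tested. Windows of 14 of the 19 genes were searched for the CArG box, the site of serum response factor. Windows of 2 genes held it, against 1.63% of all single windows. They are printed with the box in capitals: in Egr2 (chr10:67537316-67537615, plus strand, 1 of 5 windows of the gene) it begins 72 bases before the start, and in Zfp36 (chr7:28379179-28379478, minus strand) 58 bases before it.
Egr2: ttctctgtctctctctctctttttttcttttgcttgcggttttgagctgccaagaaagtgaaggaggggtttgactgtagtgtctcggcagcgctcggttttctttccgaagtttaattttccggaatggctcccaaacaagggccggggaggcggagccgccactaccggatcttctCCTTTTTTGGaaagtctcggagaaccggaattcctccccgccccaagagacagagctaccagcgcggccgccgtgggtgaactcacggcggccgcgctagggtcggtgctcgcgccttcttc
Zfp36: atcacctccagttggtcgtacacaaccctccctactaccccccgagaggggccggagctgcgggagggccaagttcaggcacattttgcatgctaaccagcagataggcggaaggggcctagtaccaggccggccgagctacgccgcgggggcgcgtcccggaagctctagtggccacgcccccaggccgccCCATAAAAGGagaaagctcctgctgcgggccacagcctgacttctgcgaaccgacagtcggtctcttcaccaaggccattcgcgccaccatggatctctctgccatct

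Sterol genes had the highest share of rises among the lists: 24 of 29 were higher and none was lower, with a median of 1.29. The rises include an early enzyme of the pathway (Mvk) and the last (Dhcr7). Lss, which closes the sterol ring system, was at 14.5, 21.98 and 13.2 CPM at e16.5, 35.8, 42.6 and 16.9 CPM at e18.5 and 153, 157, 140.1 and 165 CPM at d2, with a log2 fold change of 3.22 (SE 0.21, adjusted p = 3.1e-08). Cyp51, which demethylates lanosterol, went from 35.9, 34.7 and 20.96 CPM to 149.98, 144, 156 and 171 CPM, and the fatty acid desaturase Scd1 from 2.95, 8.003 and 5.92 CPM to 47.7, 46.3, 52.4 and 57.6 CPM. The spread among d2 libraries was small for all of these, and no d2 library fell within the e16.5 range. Hmgcs1 is listed at 0 in every library of both ages. The sterol response element TCACNCCAC was in 0 of the 17 genes that rose and had a window, against 1.24% of all windows.

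Nuclear genes of oxidative phosphorylation rose in 24 of 40 cases and fell in 2 (Uqcrc1 and Atp5b; 1 without any single e16.5 library or without d2 replicate 3 or 4, and 0 without d2 replicate 1), with a median of 0.69. Cox5a, a subunit of cytochrome c oxidase, was at 31.3, 21.1 and 20.5 CPM and then 104, 96.7, 77.2 and 77.00 CPM. Subunits of every respiratory complex and of the ATP synthase are among those that rose. Of glycolysis and lactate genes 8 of 24 were higher and 1 lower (2 without d2 replicate 1). Hexokinase Hk2 went from 52.1, 37.8 and 43.1 CPM to 183, 185, 174 and 173 CPM, and Aldoa from 39.8, 41.5 and 35.2 CPM through 59.3, 64.95 and 59.2 CPM to 121, 131, 91.8 and 112 CPM. In the hypoxia list, 8 of 19 were higher and 2 lower (1 without e16.5 replicate 3); the prolyl hydroxylase Egln1 was at 15.9, 19.3 and 14.3 CPM and then 110.2, 111, 104 and 98.03 CPM, and the H3K9 demethylase Kdm3a fell from 1456, 1399 and 1436 CPM to 450.3, 417, 523 and 673 CPM.

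Genes of translation did not share 1 direction. Cytoplasmic ribosomal protein genes had 5 higher and 5 lower of 55, below the background in both directions, and many of them have near-identical copies that can share reads. The 5 higher were 3 without e16.5 replicate 2 or 3 or without d2 replicate 1 or 2, and 8 without d2 replicate 4. Of ribosome assembly and translation factors 12 of 30 were higher (7 without e16.5 replicate 2) and 8 lower. Those that fell include abundant translation proteins: Pabpc1, which binds poly(A) tails, went from 3925, 3167 and 3482 CPM to 1194, 1517, 1408 and 1448 CPM, and the elongation factor Eef2 from 1761, 1622 and 1747 CPM to 667, 837, 673 and 769 CPM. Gar1, a protein of the particles that carry out RNA pseudouridylation, rose from 39.2, 37.1 and 32.1 CPM to 106, 139, 117 and 93.1 CPM.

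Of genes of pluripotency and primordial germ cells, 9 of 25 were lower, 14 did not pass the test and 2 were higher (Klf4 and Esrrb, a count of 0 to 4 when 1 library is left out, with the lowest without e16.5 replicate 2), with a median of -0.35. Utf1, a chromatin factor of pluripotent cells, was at 1171, 1101 and 1152 CPM at e16.5, 359.98, 277 and 323 CPM at e18.5 and 76.6, 94.7, 80.8 and 111 CPM at d2. Each age lay below the one before with no overlap, and d2 against e16.5 gave a log2 fold change of -3.65 (SE 0.16, adjusted p = 3.3e-10). Dppa4 went from 181, 192 and 100.4 CPM to 48.3, 34.9, 30.8 and 41.3 CPM. Nanog was low throughout, at 9.25, 2.25 and 1.97 CPM and then 0.309, 0.212, 0 and 0.230 CPM, with a log2 fold change of -4.47, and -3.38 without e16.5 replicate 1. Pou5f1 (means 14.8 and 7.65 CPM) and Ifitm3 (13.1 and 1.83 CPM) fell as well. The POU factor core TTTGCAT was in 1 of the 7 genes that fell and had a window, Nanog, against 4.63% of all windows. The match in Nanog is printed in capitals, 75 bases before the start (chr6:122707239-122707538, plus strand, 1 of 2 windows of the gene).
Nanog: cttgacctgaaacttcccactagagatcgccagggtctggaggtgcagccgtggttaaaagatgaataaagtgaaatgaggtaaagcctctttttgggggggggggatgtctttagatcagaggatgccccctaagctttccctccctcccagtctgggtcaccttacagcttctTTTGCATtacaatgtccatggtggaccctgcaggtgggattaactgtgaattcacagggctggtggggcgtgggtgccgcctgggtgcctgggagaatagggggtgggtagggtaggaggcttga

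The piRNA pathway fell in 14 of 27 genes and rose in 2 (Tdrd6 and Dicer1), with a median of -0.64. Piwil4 (MIWI2), the nuclear PIWI protein that directs DNA methylation to transposons, was at 490.3, 482 and 269.5 CPM at e16.5, 153, 187 and 175 CPM at e18.5 and 52.4, 62.99, 77.1 and 40.6 CPM at d2. It fell in steps, with e16.5 replicate 3 the lowest of its age and still above all later libraries, and gave a log2 fold change of -2.83 (SE 0.24, adjusted p = 1.1e-06). Tdrd9, a helicase partner of Piwil4, was at 907, 942 and 967 CPM, 642, 777 and 494 CPM and 209.9, 216, 241 and 292 CPM at the 3 ages, with a log2 fold change of -1.97 (SE 0.14, adjusted p = 9.5e-08). Tdrd1, a scaffold of the germ granule, went from 2143, 2003 and 1974 CPM to 641, 671, 679.7 and 736 CPM, Mael from 1843, 1589 and 1517 CPM to 576, 583, 665 and 718 CPM and Rnf17 from 831, 755 and 675 CPM to 236, 253, 308 and 262 CPM. Mael was still at 1487, 1416 and 1754 CPM at e18.5. Piwil2 (MILI) had means of 829 and 497 CPM (log2 fold change -0.74).

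The DNA methylation machinery split, with 6 of 17 higher and 7 lower. Among genes of new methylation, Dnmt3b rose (log2 fold change 1.00), while Dnmt3a went from 1294, 1144 and 1347 CPM to 442, 437, 529 and 645 CPM and fell with a log2 fold change of -1.30 (SE 0.15, adjusted p = 1e-05). Its cofactor Dnmt3l fell from a mean of 109 to 13.5 CPM (log2 fold change -3.02). Dnmt3a was still at 1304, 1188 and 1113 CPM at e18.5. Genes of maintenance at replication rose: Uhrf1, which brings Dnmt1 to newly copied DNA, was at 18.4, 16.7 and 11.4 CPM at e16.5, 13.4, 11.7 and 12.7 CPM at e18.5 and 173, 289.8, 201 and 125 CPM at d2, with a log2 fold change of 3.67 (SE 0.29, adjusted p = 5.8e-07). Dnmt1 had means of 335 and 595 CPM and the remodeller Hells 154 and 375 CPM. The 5-methylcytosine oxidase Tet2 fell from 281, 287 and 242 CPM to 62.6, 23.9, 54.4 and 80.7 CPM.

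Of heterochromatin and histone silencing genes 9 of 26 were lower and 5 higher, with a median of -0.15. Kdm1b, an H3K4 demethylase known for setting methylation in oocytes, was at 1410, 1494 and 1995 CPM at e16.5, 1956, 1598 and 2344 CPM at e18.5 and 209, 243, 288 and 287 CPM at d2, with a log2 fold change of -2.67 (SE 0.16, adjusted p = 1.8e-08). The transposon silencer Morc1 went from 1042, 955 and 748 CPM through 417, 409.9 and 402 CPM to 283, 282, 329 and 358 CPM, so most of its difference lay between e16.5 and e18.5, and Atf7ip, the partner of Setdb1, from 871, 819 and 630.2 CPM to 272, 223, 304 and 281 CPM. Setdb2 (log2 fold change 4.23) overlaps the readthrough symbol Setdb2-phf11c of the e16.5 table and cannot be told apart from the gene definition. Polycomb and Trithorax genes were mixed, with 9 of 29 higher (5 without e16.5 replicate 2) and 6 lower; Scmh1 rose from 108, 118 and 124 CPM to 249.8, 272, 250.3 and 226 CPM and Eed fell from 277, 242 and 223 CPM to 113, 151, 150.2 and 128 CPM.

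RNA-binding regulators of fetal male germ cells were as often higher (7 of 27) as lower (8). Nxf2, an mRNA export factor of the germline, went from 2115, 2228 and 1581 CPM through 576, 545 and 857 CPM to 364, 429.8, 459.8 and 308 CPM, and Tex14, of intercellular bridges, from 1108, 929 and 604 CPM to 296, 309.5, 343 and 284 CPM. Dnd1 (means 38.4 and 9.32 CPM) and its partner Nanos2 (7.59 and 2.62 CPM), which hold fetal male germ cells on the male path, fell. Igf2bp1, an mRNA-stabilising protein, rose from 93.1, 71.1 and 74.7 CPM through 158, 183 and 135 CPM to 263, 337, 282 and 281 CPM.

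Meiotic prophase genes were 9 higher and 8 lower of 30, the latter 5 without e16.5 replicate 2. The synaptonemal complex gene Syce2 was at 52.5, 30.8 and 23.7 CPM and then 155, 161, 158 and 117 CPM, while Sycp3 did not pass (means 146 and 141 CPM, adjusted p = 0.88). The axis gene Hormad1 fell from 186, 195 and 195 CPM to 104, 103, 107 and 87.9 CPM and the crossover helicase Hfm1 from 282, 286 and 222 CPM to 93.4, 77.9, 149 and 92.5 CPM. Of recombination repair and Fanconi genes 10 of 28 were lower (6 without e16.5 replicate 1, 5 without replicate 2) and 5 higher (2 without e16.5 replicate 2). Fancd2, the Fanconi protein that is ubiquitinated at stalled forks, was at 277, 295 and 224 CPM at e16.5, 69.4, 95.4 and 72.02 CPM at e18.5 and 73.9, 89.2, 75.1 and 55.05 CPM at d2, so e18.5 and d2 overlap. Brdt, a testis bromodomain protein among the germline genes with methylation-controlled promoters (9 higher and 11 lower of 33), fell from 1100, 1174 and 1014 CPM to 142, 106, 155 and 193 CPM and was at 789, 966 and 1343 CPM at e18.5.

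In growth factor receptors and adhesion, 16 of 31 were higher and 3 lower: the epithelial adhesion molecule Epcam went from 76.2, 48.2 and 40.4 CPM to 199, 305, 269 and 178 CPM and the integrin Itga6 from 51.1, 43.7 and 51.99 CPM to 143, 147, 165 and 99.8 CPM, while the neural adhesion molecule L1cam fell from 141, 109 and 129 CPM to 29.1, 11.1, 16.6 and 27.4 CPM. In Nodal, activin and BMP signalling, 11 of 29 were higher and 3 lower (5 with DESeq2 or all 20 libraries in 1 fit). The activin receptor Acvr2b was at 114, 104 and 107 CPM at e16.5, 115, 97.5 and 82.4 CPM at e18.5 and 9.47, 10.2, 8.47 and 10.9 CPM at d2, with a log2 fold change of -3.47 (SE 0.19, adjusted p = 3.8e-09). The signal transducer Smad3 rose from 11.7, 11.4 and 7.06 CPM to 51.2, 53.2, 54.1 and 41.03 CPM.

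Imprinted genes were close to the background, with 8 of 42 higher and 10 lower. The paternally expressed Mest rose from 55.9, 61.2 and 64.2 CPM through 124, 135 and 237 CPM to 361, 319, 385 and 323 CPM, with a log2 fold change of 2.52 (SE 0.15, adjusted p = 1.6e-08), and Igf2 from 142, 193 and 215 CPM to 468, 624, 473 and 341 CPM. Peg10, also paternally expressed, fell from 565, 590.4 and 468 CPM to 171, 156, 166 and 248 CPM, and the maternally expressed Meg3 from 124, 169 and 238 CPM to 45.9, 40.2, 71.6 and 71.3 CPM. Genes of p53 and its targets were 7 higher and 7 lower of 27, the latter 2 to 4 without e16.5 replicate 2 or 3 or d2 replicate 3. Pmaip1 (NOXA) rose from 10.1, 12.96 and 5.50 CPM to 47.8, 35.2, 60.7 and 79.9 CPM and the survival gene Bcl2 from 2.85, 4.62 and 5.19 CPM to 32.01, 16.8, 25.1 and 34.02 CPM. Interferon and nucleic acid sensing genes were 6 higher and 8 lower of 31 (3 and 4 without e16.5 replicate 2). Of spermiogenesis genes 1 of 18 was higher (2 without e16.5 replicate 1 or 3 or d2 replicate 1 or 4) and 3 were lower, among them Akap4, a sperm tail protein, from 22.2, 19.16 and 12.1 CPM to 0.721, 1.76, 0.580 and 1.15 CPM.

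**Figure D3:**
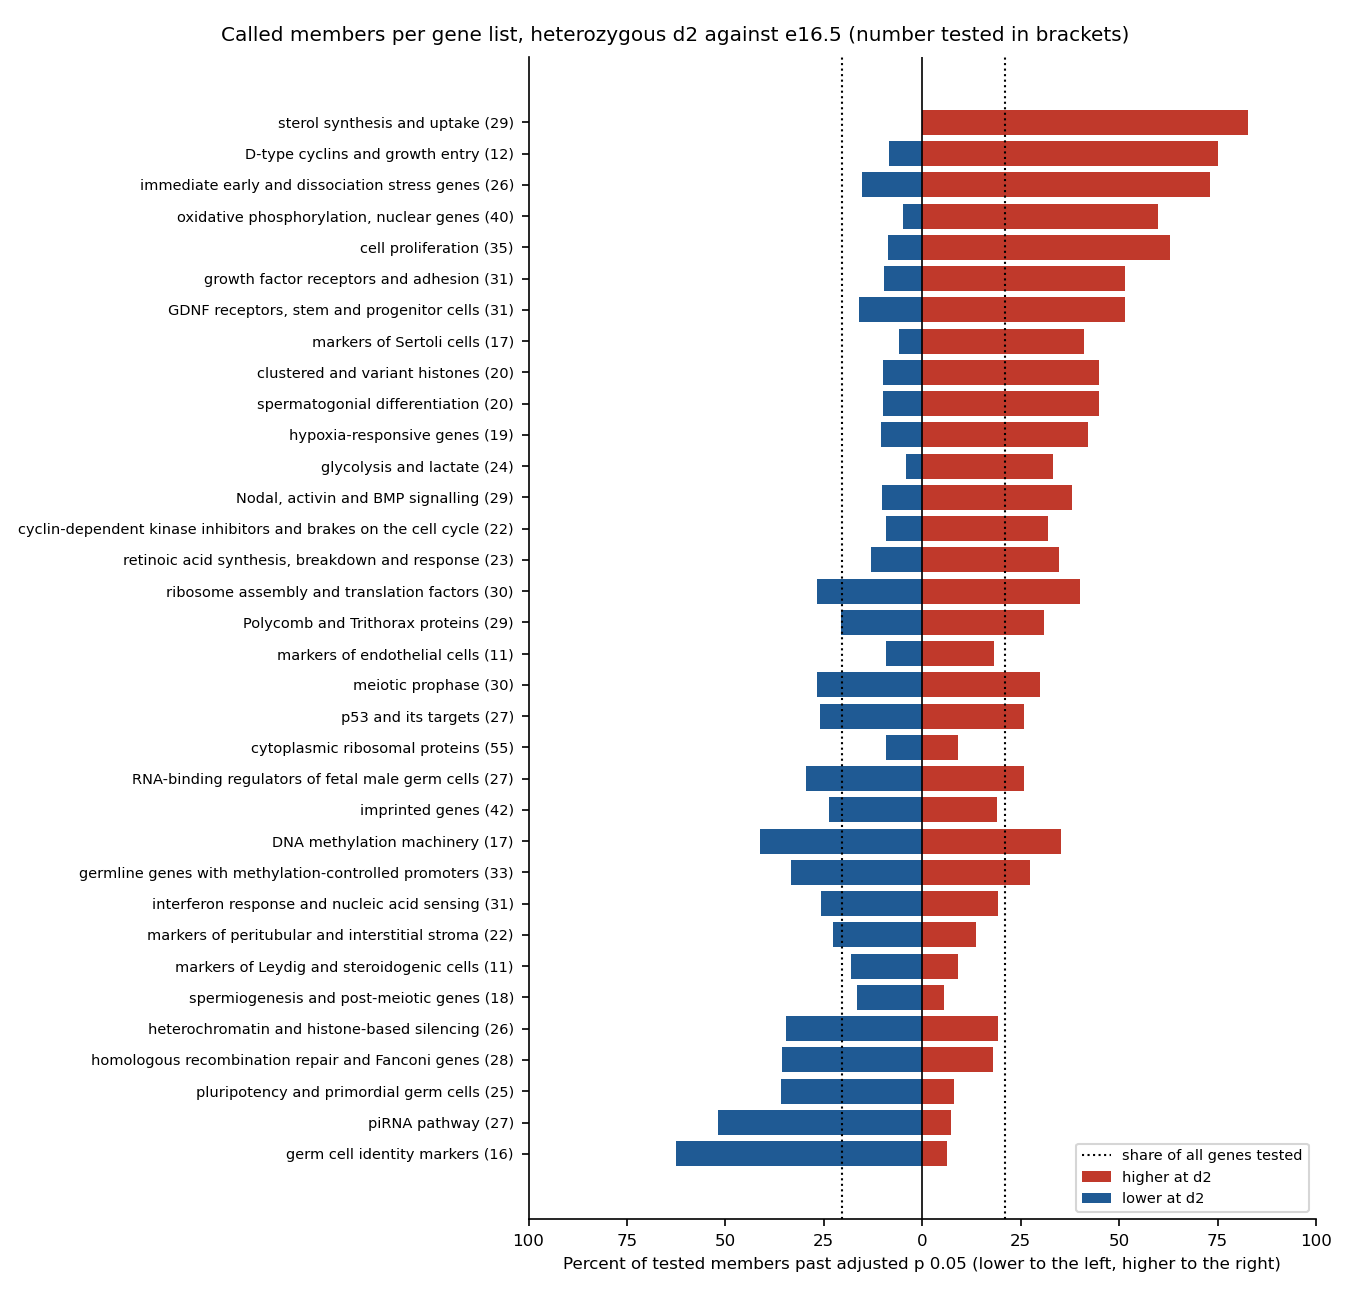
Percent of tested members of gene lists (macrophage and red blood cell markers, few of them tested, are not drawn) that were higher (red, right) or lower (blue, left) at d2, with the number tested in brackets; dotted lines mark the shares over all genes tested, 21.1% and 20.3%. Sterol genes lead the rises with 24 of 29, and 10 of 16 germ cell markers and 14 of 27 piRNA pathway genes fell.

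Repeats were counted by name and by family. They took 51.1, 57.5 and 59.3% of all counts at e16.5 and 48.3, 43.2, 48.9 and 51.6% at d2, or 55.9 ± 4.31% (SD, n = 3) and 48.0 ± 3.51% (SD, n = 4). The groups overlap, the two-sided exact permutation p was 0.086, and the smallest p that the 35 splits allow is 0.029; e18.5 had 58.4 ± 3.08%. Scaled on gene counts, 880 of 1105 repeat names were lower (79.6%) and 8 higher (0.724%), 80.4% together, with a median log2 fold change of -0.68. Scaled on the repeat counts themselves, 197 were lower (17.8%) and 139 higher (12.6%), 30.4% together, with a median of -0.01. Each group below is given under both scalings.

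Young L1 elements, here the L1Md names of LINE-1 retrotransposons, were lower in 6 of 6 names under both scalings. L1Md_A was at 4058, 5163 and 4891 CPM of gene counts at e16.5, 3184, 3534 and 7225 CPM at e18.5 and 859, 553, 766 and 923 CPM at d2. Each d2 library lay far below the lowest e16.5 library. The log2 fold change was -2.60 (SE 0.18, adjusted p = 3.4e-42), or -1.94 on repeat scaling (adjusted p = 3.0e-11). The test shares its estimate of spread between repeat names, so these p-values do not rest on the spread of L1Md_A alone. L1Md_Gf followed (393, 552 and 613 CPM, then 95.2, 66.02, 84.5 and 97.2 CPM). The more abundant L1Md_F2 went from 13457, 18334 and 19280 CPM to 5863, 4124, 5432 and 6530 CPM (log2 fold change -1.63, -0.96 on repeat scaling). Older L1 and Lx names were lower in 95 of 100 on gene scaling, but on repeat scaling 31 were lower and 11 higher.

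IAP elements, retroviruses that are normally silenced by methylation, were lower in 15 of 16 names, and in 13 with 1 higher on repeat scaling. IAPLTR2a was at 242, 339 and 250.3 CPM at e16.5, 117, 129 and 157 CPM at e18.5 and 56.1, 45.9, 57.9 and 56.4 CPM at d2, with a log2 fold change of -2.36 and -1.68 on repeat scaling. It was lower at each age than at the one before, with no overlap. IAP-d-int, the most abundant IAP name, was the exception, at 831, 1161 and 1074 CPM and then 965, 911, 1039 and 1152 CPM; its log2 fold change was -0.01 on gene scaling (adjusted p = 0.97) and 0.68 on repeat scaling. MusD and ETn names were lower in 5 of 5 under both scalings, for example ETnERV2-int from 1732, 2260 and 2521 CPM to 745, 579, 802 and 954 CPM. Of other retroviral names 69 of 75 were lower on gene scaling, and 44 lower with 7 higher on repeat scaling.

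MERVL and its LTR MT2 were lower in 7 of 7 names on gene scaling, with none lower and 1 higher on repeat scaling. SINE names, short elements copied by L1 proteins, turned with the scaling: 23 of 31 lower on gene counts and 29 of 31 higher on repeat counts. The most abundant, B3, went from 64559, 74238 and 69500 CPM to 48923, 42188, 56292 and 55739 CPM, a log2 fold change of -0.45 on gene scaling and 0.22 on repeat scaling. The major satellite GSAT_MM, the repeat of pericentromeres, was at 601, 1036 and 13623 CPM at e16.5, 29978, 14153 and 27725 CPM at e18.5 and 18.01, 15.8, 23.2 and 49.6 CPM at d2. The e16.5 replicate 3 stood just below the lowest e18.5 library and the other e16.5 libraries far lower, and the log2 fold change of -7.58 was -4.95 without e16.5 replicate 3. By family counts the Satellite family fell with a log2 fold change of -1.08. That family had 5008.5 CPM in e16.5 replicate 3, below the 13623 CPM of GSAT_MM alone, and 1778 CPM in d2 replicate 1. Name and family counts thus do not add up, and the size of the fall depends on which is used. Why they differ was not tested. The names that rose were led by the simple repeat (C)n, at 58.8, 64.4 and 61.9 CPM and then 146, 152, 165 and 141 CPM, with e18.5 at 129.8, 143 and 198 CPM.

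At the level of families, 42 of 51 were lower on gene scaling (82.4%) and 0 higher, and 4 lower (7.84%) and 7 higher (13.7%) on repeat scaling, 21.6% together. By gene scaling 18 to 44 families were lower when 1 library was left out, with 18 without e16.5 replicate 2, 21 without e16.5 replicate 3 and 26 without d2 replicate 1. L1 (log2 fold change -0.92, and -0.37 on repeat scaling) and ERV1 (-0.96 and -0.41) passed under both. ERVK (-0.85 and -0.29) and Gypsy? (-0.90 and -0.34) passed under both scalings too. The Satellite family (-1.08) passed on gene scaling only. The largest fall was that of Genie? (-1.31), a family with a mean of 10.2 CPM at e16.5. It did not pass on repeat scaling, and on gene scaling its call was lost without e16.5 replicate 3.

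**Figure D4:**
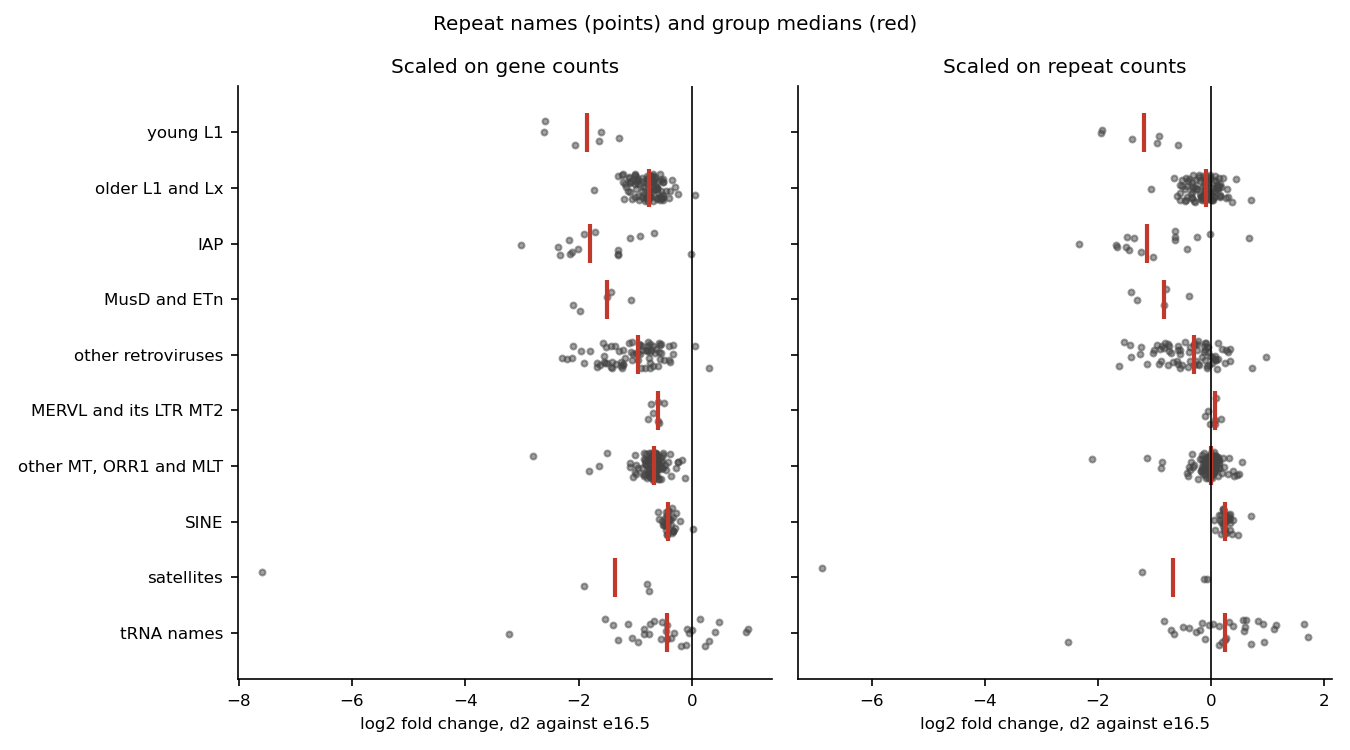
Log2 fold change of single repeat names (points) at d2 against e16.5 by group, scaled on gene counts (left) and on repeat counts (right), with group medians in red. Young L1, IAP and MusD or ETn medians stay below 0 in both panels, and the SINE median is -0.42 on the left and 0.25 on the right.

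The same interval was compared in Tex15-/- cells, in libraries other than the heterozygous ones that stand in the same tables. Whether litters or handling were shared between the genotypes is not known here. In knockout cells 3776 of 16229 genes were higher (23.3%) and 3789 lower (23.3%), 46.6% together. Of the 15676 genes tested in both, 2566 were higher in both genotypes, which is 76.5% of those in heterozygous and 69.3% of those in knockout cells, and 2504 were lower in both (77.5% and 67.5%). Opposite calls were made for 1 and 28 genes. In log2 fold changes of heterozygous and then knockout cells, Gfra1 had 5.27 and 5.49, Ccnd2 4.44 and 5.01, Egr1 3.70 and 3.48, Utf1 -3.65 and -4.14, and Piwil4 -2.83 and -3.38. By list, knockout cells had 27 proliferation genes higher and 3 lower of 35, 16 genes of GDNF reception and stem cells higher and 8 lower, and 18 sterol genes higher and 1 lower. The piRNA pathway had 2 higher and 22 lower, and pluripotency genes 0 higher and 12 lower of 25. Differences between genotypes in these counts were not tested.

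A test of the difference itself, the interaction of genotype and age, called 112 of 17057 genes (0.657%): 98 with a higher change in knockout cells (0.575%) and 14 with a lower one (0.0821%). The split depended on the tool: DESeq2 called 183 and 63, and voom 176 and 86. Of the 112, 94 also changed in heterozygous cells. Cdh12 fell in heterozygous cells from 67.5, 90.4 and 54.9 CPM to 3.29, 0.846, 1.51 and 1.72 CPM, while knockout libraries ran from 66.7 to 84.1 CPM to 98.1 to 114 CPM (difference of log2 fold changes 5.83, adjusted p = 1.5e-09). Samd9l, an antiviral protein, was at 57.4, 61.2 and 46.4 CPM and then 2.47, 2.89, 4.41 and 6.09 CPM in heterozygous cells and at 46.9 to 54.5 and then 69.5 to 93.1 CPM in knockout cells. The transporter Slco1a5 was at 21.4, 39.7 and 24.2 CPM and then 1.13, 0.212, 1.39 and 1.03 CPM, against 14.3 to 19.9 and then 30.7 to 45.98 CPM. Tmc2 was at 108, 148 and 139 CPM and then 5.04, 3.46, 5.92 and 6.78 CPM, against 89.9 to 109.9 and then 49.7 to 122 CPM. For these genes the heterozygous d2 libraries lay below all others of the 4 groups. Cyp4a12b was at 16.4, 22.3 and 8.92 CPM at e16.5 and at 0 in all 4 heterozygous d2 libraries, at least 218-fold lower, and at 17.9 to 27.5 CPM in knockout d2 libraries; it has near-identical copies that can share reads. Without the library labelled knockout d2 replicate 2, which had the 103 CPM of Tex15, the interaction called 115 genes; it called 69 without heterozygous e16.5 replicate 2, 65 without knockout e16.5 replicate 2 and 74 without knockout e16.5 replicate 3.

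**Figure D5:**
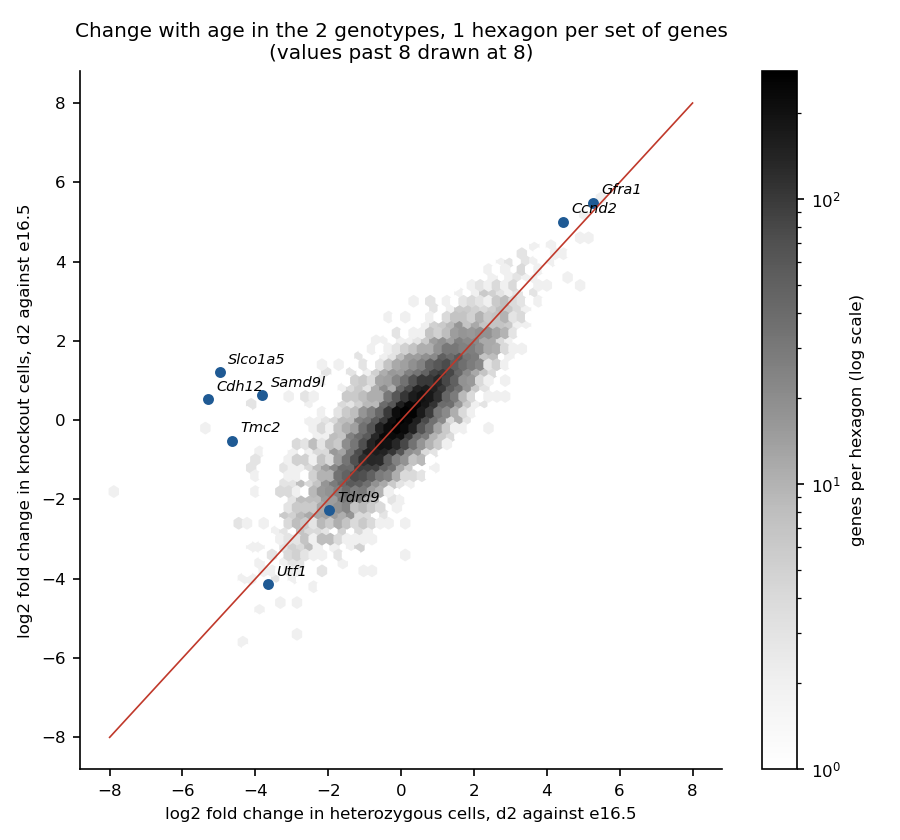
Log2 fold change at d2 against e16.5 in heterozygous cells (horizontal) and knockout cells (vertical) for the 15676 genes tested in both, as hexagons shaded by the number of genes; the line marks equal values. Most genes lie along the line, and Cdh12, Slco1a5, Samd9l and Tmc2 lie above it at the left.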

How the data were processed

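RNA sequencing of sorted male germ cells was analysed. The deposited tables hold raw counts per gene symbol and repeat name, and estimated counts for each repeat family, which carry fractions and were rounded here. Per the submitters' processing notes the authors used STAR, featureCounts, Bowtie and edgeR with mouse build mm9; versions, roles, strand and multiple mapping are not given in the sources used here. Where strand is not known, overlapping and antisense genes can share reads, as can near-identical copies.

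Gene and repeat rows were separated, and the tables joined on 23853 common symbols. Counts were filtered (filterByExpr, at least 10 counts, 15 in total), scaled by TMM and tested on the 7 libraries with edgeR 4.0.16 (robust quasi-likelihood, R 4.3.3) at a Benjamini-Hochberg adjusted p of 0.05. Repeats used the gene library sizes, and their own as an alternative. The family row without a name (2.79 to 3.88% of family counts) was left out. CPM of e18.5 and knockout libraries were put on the same scale through TMM factors over all 20. Knockout cells and the interaction had fits of their own. The test was tried on simulated data in which 200 of 16142 genes changed. It recovered 37% of 2-fold and 78% of 4-fold changes and called 6 unchanged genes. In the data 41.4% of genes passed, so the p cut-off differs and these values do not carry over to the data. A gene that did not pass is not shown to be unchanged.

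Named genes are Tex15, up to 12 rises and 12 falls with the largest change (non-overlapping, mean log2 CPM of at least 4), up to 5 called members per list by p, genes at 0 in 1 table and the leading repeats and interaction genes; other list members were named after their values were seen. The members and lists were chosen with earlier results of these data known. DESeq2 1.42.0, limma 3.58.1 (voom), median-ratio factors, other filters, a replicate block, all 20 libraries in 1 fit and leaving out each library were alternatives; dropping genes touched by a symbol of 1 table was added after seeing the data. Of the lists, 15 mitochondrially encoded genes were not among the joined symbols, and 2 of 3 red blood cell markers tested fell. Some genes that the rule names are not reported here.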

Additional observations from a re-analysis of the deposited data

Results flagged for a closer look

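Among 220 groups of 4 d2 libraries examined, 8 had a highest or lowest library set apart by a gap above Dixon's critical value at 95%; chance gives about 1 in 20. In d2 replicate 4, Syce2 was low at 117 CPM (others 155 to 161), Peg10 high at 248 CPM (others 156 to 171), Mb21d1 low at 9.08 CPM (others 14.4 to 15.2) and Cyp11a1 high at 1.95 CPM (others 0.348 to 0.515). In d2 replicate 2, Eef1a1 was high at 686 CPM (others 548 to 566), Col4a1 high at 77.2 CPM (others 54.8 to 56.8) and the repeat IAPLTR2a low at 45.9 CPM (others 56.1 to 57.9). In d2 replicate 3, Kdr was low at 5.80 CPM (others 9.42 to 10.1).

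For 11 named genes the change with age differed between genotypes by the interaction test of edgeR (knockout minus heterozygous, log2). The difference was 5.83 for Cdh12, 4.14 for Tmc2, 4.46 for Samd9l, 6.20 for Slco1a5 and 9.59 for Cyp4a12b, whose heterozygous d2 libraries are all at 0, so that its fitted value is no bound. It was 2.88 for Ky (adjusted p = 0.0057) and 2.43 for C1s1 (adjusted p = 0.016). It was -1.07 for Cdk6 (adjusted p = 0.046), -1.11 for Kdm6b (adjusted p = 0.041), -1.62 for Ndrg1 (adjusted p = 0.016) and -1.58 for Vwf (adjusted p = 0.019).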

How the results depend on the processing

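The count of changed genes (6681) kept within 1.5 times under other tools, factors and filters, and was 5068 to 7006 without 1 library; with the demand of a 2-fold change it was 4230. The interaction count of 112 was 246 with DESeq2, 262 with voom and 65 to 155 without 1 library. On repeat scaling 336 repeat names and 11 families passed, against 888 and 42, and families numbered 18 to 44 without 1 library. Repeat scaling turned the log2 fold change of IAP-d-int to 0.68, MTD to 0.0048, B3 to 0.22, tRNA-Ala-GCY_ to 0.15 and LSU-rRNA_Hsa to 0.48; IAP-d-int, not called, ran from -0.13 to 0.095 without 1 library. Repeat scaling differs by construction, since it removes a shift common to the repeats; for the other changes the cause was not tested. Of 186 named genes called, 12 lost the call under at least 1 of 16 settings and none turned. Replicate numbers did not pair the libraries: deviations of same-numbered libraries correlated at -0.000257, 0.026 and -0.077, and not every library correlated best with its own number. With the replicate block 6661 genes passed (3324 higher, 3337 lower), and Khdc1a (adjusted p = 0.096), Hsd17b3 and Pecam1 were not called. With voom, 13 of 72 list counts were more than 1.5 times as high.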
